A study of Rattus norvegicus with 6 samples.

Results

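Small RNA was sequenced from rat primary sertoli cells, and 168 of the 806 piRNA-annotated rows of the count table are described here. They were chosen by their values in these samples: a row needed a mean of at least 50 reads over the 6 samples, and its mean level after 4-nonylphenol (4-NP) had to lie above 0.5 and below 2 times its mean level in the controls. Of the 806 rows, 239 had a mean of at least 50 reads. Of these 239, 168 lay inside the limits of the ratio, 50 were at or above 2 times and 21 were at or below 0.5 times. The level used throughout is the read count per 1e+06 of the sample's reads on mature miRNAs (CPM), and it is not divided by length. Because the difference between 4-NP and control chose the members, every value of that difference is given as a description. Where a fit over all rows was run, the number of members it called is given beside the share of all rows called, and it is no test of the members.

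The cells were primary sertoli cells enriched from testes of Sprague-Dawley rats aged 5 to 10 days and used at passage P2. The 3 control samples were cultured without 4-NP, and the 3 4-NP samples were treated with 0.5 mM 4-NP for 24 h. 4-NP is an alkylphenol that acts on estrogen receptors. The labels do not say whether the samples of a group came from separate cultures or animals, so the spread between them may be technical. Reads on mature miRNAs numbered 22291892 to 23426742 in the controls and 20023200 to 22130929 after 4-NP, and piRNA-annotated reads were 0.448 to 0.757% of a sample's counted reads.

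piRNAs are short RNAs slightly longer than miRNAs that guide PIWI proteins. In the testis they are made in the germ cells, where they silence transposons and guide the cleavage of other transcripts, and they mature without Dicer, the enzyme that cuts miRNAs from hairpin precursors. Sertoli cells are the somatic cells that nurse the germ cells. A read is assigned to a piRNA by its sequence alone, so an entry of a piRNA collection can also collect pieces of other short RNAs. No protein was measured here, so the term piRNA stands only for the annotation of the row.

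Sertoli cell miRNAs were present in every sample. The summed level of 5 miRNAs (miR-202-5p, miR-202-3p, miR-140-3p, miR-140-5p and miR-382-5p) was 1414 to 1933 CPM in the controls and 1254 to 1439 CPM after 4-NP. The 6 counted miRNAs of germ and pluripotent cells (the miR-290 cluster) summed to 1.26 to 1.92 CPM in the controls and to 0.150 to 0.365 CPM after 4-NP, and all 6 had reads in at least 1 sample. The lowest sum, 0.150 CPM, is the level of 3 reads in 4-NP sample 2, so the 4-NP sums rest on few reads. The 6 miRNAs of meiotic germ cells (the miR-34b, miR-34c and miR-449 arms) summed to 149.7 to 166.7 CPM and 162.4 to 197.2 CPM. This sum does not show its single arms, which are not given here. Reads on the mir-449 precursor family, which are counted apart, were at 155 to 203 CPM in the controls and 2.37 to 47.6 CPM after 4-NP. The 3 erythroid miRNAs summed to 11.0 to 40.3 CPM in the controls and to 59.1 to 628 CPM after 4-NP, the 2 endothelial ones to 6325 to 7615 CPM and 3234 to 3805 CPM, and the 2 of myoid cells to 120518 to 136205 CPM and 88367 to 96674 CPM. The 3 myeloid miRNAs summed to 8.05 to 10.5 CPM and 8.36 to 14.1 CPM. The part of these other cells in the values below was not tested.

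The 168 members fell into 2 kinds by name. There were 27 known piRNAs, named rno_piR with a number, and 141 predicted piRNAs, named novel_pir with a number. Among the 239 abundant rows the known ones were spread differently over the ratio: 27 of the 61 known rows lay inside the limits, 15 were at least 2 times higher and 19 were at or below 0.5 times. Of the 178 predicted rows, 141 lay inside the limits, 35 were at least 2 times higher and 2 were at or below 0.5 times. Together the members held 76.6 to 81.7% of a control sample's piRNA-annotated reads and 65.0 to 70.4% of a 4-NP sample's. The rows outside the limits differ between the groups by the rule, and this share differs with them.

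In control samples 1, 2 and 3 the members summed to 4970.0, 4733 and 4071 CPM. In 4-NP samples 1, 2 and 3 they summed to 6102, 4571 and 5322 CPM, so 4-NP sample 2 lay inside the range of the controls and the other 4-NP samples lay above it. The control mean was 4591 ± 466 CPM and the 4-NP mean 5332 ± 765 CPM (SD, n = 3 each). The known members gave 2327 ± 361 CPM and 2239 ± 473 CPM. The predicted members gave 2264 ± 159 CPM and 3093 ± 337 CPM, with 2099 to 2417 CPM in the controls and 2707 to 3331 CPM after 4-NP. On the CPM scale the summed level of the known members overlapped between the groups, while that of the predicted members did not. Divided by DESeq2's size factors this was turned around. With these factors the predicted members summed to 53330 to 60572 scaled reads in the controls and 54539 to 64656 after 4-NP, which overlap. The known members summed to 50104 to 71638 and 39301 to 45380, which do not. That gap lay between control sample 3 and 4-NP sample 1. In rno_piR_023447 alone these samples held 5074 and 1095 unscaled reads, and the gap was not tested without this row.

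**Figure D1:**
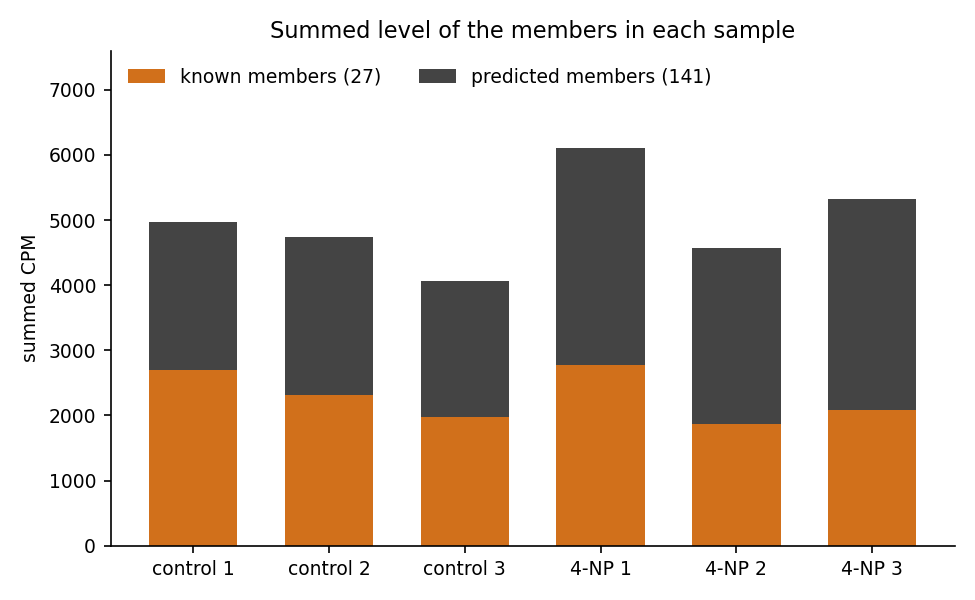
Bars give the summed level of the members in each of the 6 samples, in CPM, split into known and predicted piRNAs. The predicted part is 2099 to 2417 CPM in the 3 control samples and 2707 to 3331 CPM in the 3 4-NP samples. The known part is 1972 to 2693 CPM and 1865 to 2771 CPM. By DESeq2's size factors, computed from rows that include the members, the predicted part overlaps between the groups. The known part then does not overlap, and this was not tested without rno_piR_023447.

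Within these limits most members were still higher after 4-NP than in the controls. The ratio of the means was above 1 for 130 of the 168 members and below 1 for 38, with a median of 1.31 and a range of 0.516 to 1.99. The median was 1.28 for the known and 1.32 for the predicted members. In 53 members every 4-NP sample lay above every control sample, which is 31.5% of the members and 35.1% of the 738 rows tested were of this kind. These 738 are the rows other than mature miRNAs that passed a filter on low counts, piRNAs and all 168 members included. In 5 members every 4-NP sample lay below every control sample, which is 2.98%, against 11.8% of all rows tested. In the remaining 110 members the groups overlapped. The rule used these same samples, so nothing is read from either share.

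In the edgeR quasi-likelihood fit across the 738 rows, with Benjamini-Hochberg adjustment, 9 members had an adjusted p under 0.05 and a higher level, where 14.9% of all rows did. No member had an adjusted p under 0.05 and a lower level, where 7.86% of all rows did. The limits of the ratio bound these counts in advance, so nothing is read from them. At an unadjusted p under 0.05 the fit called 35 members higher, where 27.4% of all rows were, and 1 lower, where 9.89% were. The median log2 fold change was 0.36 over the members and 0.46 over all rows tested. The count of 9 depended on each sample: it was 2, 1 and 0 without control sample 1, 2 or 3, and 3, 22 and 1 without 4-NP sample 1, 2 or 3, the last of these being called lower. The common shift depended on the scaling. Scaled by the other small RNAs themselves with TMM, the members' median was -0.037, with no member called higher and 1 called lower. DESeq2 gave a median of -0.034, with none called higher and 5 called lower. Both of these scales are computed from the tested rows, members included, whose median was 0.46 on the main scale. They bring the typical change of these rows near 0 by construction and give no independent check of the shift. Divided by DESeq2's size factors, 81 members had a ratio above 1, where 130 did on the CPM scale.

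Of the rows within the limits, the predicted novel_pir218 was at 147 CPM, 142 CPM and 140.5 CPM in the controls and 262 CPM, 206 CPM and 314 CPM after 4-NP. Its log2 fold change was 0.85 with a standard error of 0.22. It met the rule of staying within 2-fold, with a ratio of 1.82, and yet its groups did not overlap on the CPM scale.

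The 95% interval of the fitted log2 fold change stayed within 1 log2 unit on either side of 0 for 57 of the 168 members and reached beyond it for 111. Among the known members it stayed within for 6 of 27. The standard errors ran from 0.16 to 1.29, with a median of 0.28.

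At the limits of the rule the values were as follows. The 2 members with the lowest ratios were rno_piR_023447, at 0.516, and rno_piR_018183, at 0.544. The nearest abundant rows outside were novel_pir217, at 0.494, and rno_piR_024622, at 0.393. At the upper limit novel_pir422 (1.99) and novel_pir329 (1.89) were inside, and novel_pir124 (2.04) and novel_pir200 (2.06) were outside. At the limit of the count novel_pir275 (a mean of 50.8 reads) and novel_pir76 (53.2 reads) were inside, and novel_pir520 (49.5 reads) and novel_pir403 (48.7 reads) were outside. At the upper limit and at the limit of the count the rows on either side lay close together.

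A few rows held most of the reads. The 12 members with the most reads made up 50.1 to 66.1% of the members' reads in a sample, and 7 of these 12 were known piRNAs. The mean level of a member ran from 2.27 to 477 CPM, with a median of 18.7 CPM for known and 6.76 CPM for predicted members. No member had a count of 0 in any sample. The smallest count was 7 reads, for rno_piR_001200 in 4-NP sample 3.

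The most abundant member was rno_piR_012738, at 520.4 CPM, 372 CPM and 614 CPM in the controls and 728 CPM, 5.14 CPM and 622 CPM after 4-NP. These stand for 12192, 8587 and 13683 reads in the controls and 16117, 103 and 13626 reads after 4-NP. A single 4-NP sample, number 2, was thus 142 times below the highest sample, while the other two 4-NP samples lay above the 3 controls. The ratio of 0.900 that made this row a member averages over this sample, and the log2 fold change was -0.19 with a standard error of 1.27.

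The second, rno_piR_016874, had a ratio of 0.990 and was also among the 5 members whose ratio lay nearest to 1. Its levels were 513 CPM, 363 CPM and 212 CPM in the controls and 551 CPM, 493 CPM and 33.3 CPM after 4-NP. Here 4-NP sample 3 was the low one, 16.5 times below the highest sample. The means of the groups were nearly equal although the 3 samples of the 4-NP group were not.

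The third, the predicted novel_pir446, was at 290 CPM, 257 CPM and 294 CPM in the controls and 437 CPM, 378 CPM and 383 CPM after 4-NP. Its samples lay close together within each group, and all the 4-NP samples were above all the controls, with a ratio of 1.43. The known rno_piR_028510 behaved alike, at 132 CPM, 141 CPM and 149 CPM and then 193 CPM, 204 CPM and 183 CPM, a ratio of 1.37. The known rno_piR_019160 had a ratio of 1.31 and the groups did not overlap, with 107.5 to 141 CPM in the controls and 143 to 175 CPM after 4-NP. These differences depended on the scaling. By DESeq2 the log2 fold changes of novel_pir446, rno_piR_028510 and rno_piR_019160 were 0.10, 0.063 and -0.017.

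The fourth, rno_piR_023447, was at 816 CPM, 200.3 CPM and 228 CPM in the controls and 49.5 CPM, 241 CPM and 351 CPM after 4-NP. Control sample 1 alone held 43.3% of its summed CPM, the largest share of any member in a single sample. The known rno_piR_018183 was at 193 CPM, 378 CPM and 60.0 CPM and then 232 CPM, 19.3 CPM and 92.2 CPM. In both members the highest sample was a control and the lowest was a 4-NP sample. Of the remaining samples, those of rno_piR_018183 were interleaved between the groups. In rno_piR_023447 the remaining 4-NP samples, at 241 CPM and 351 CPM, lay above the remaining controls, at 200.3 CPM and 228 CPM.

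Of the others among the 12, novel_pir382 (ratio 1.40), novel_pir222 (1.16), rno_piR_000690 (1.72) and novel_pir439 (1.71) overlapped between the groups. In novel_pir439 a single sample, 4-NP sample 3 at 381 CPM, was above the other 5, which lay at 93.8 to 189 CPM. On the CPM scale the groups did not overlap in novel_pir446, novel_pir218, rno_piR_028510 and rno_piR_019160. By DESeq2 the log2 fold change of novel_pir218 was 0.46, and those of the others are given above.

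**Figure D2:**
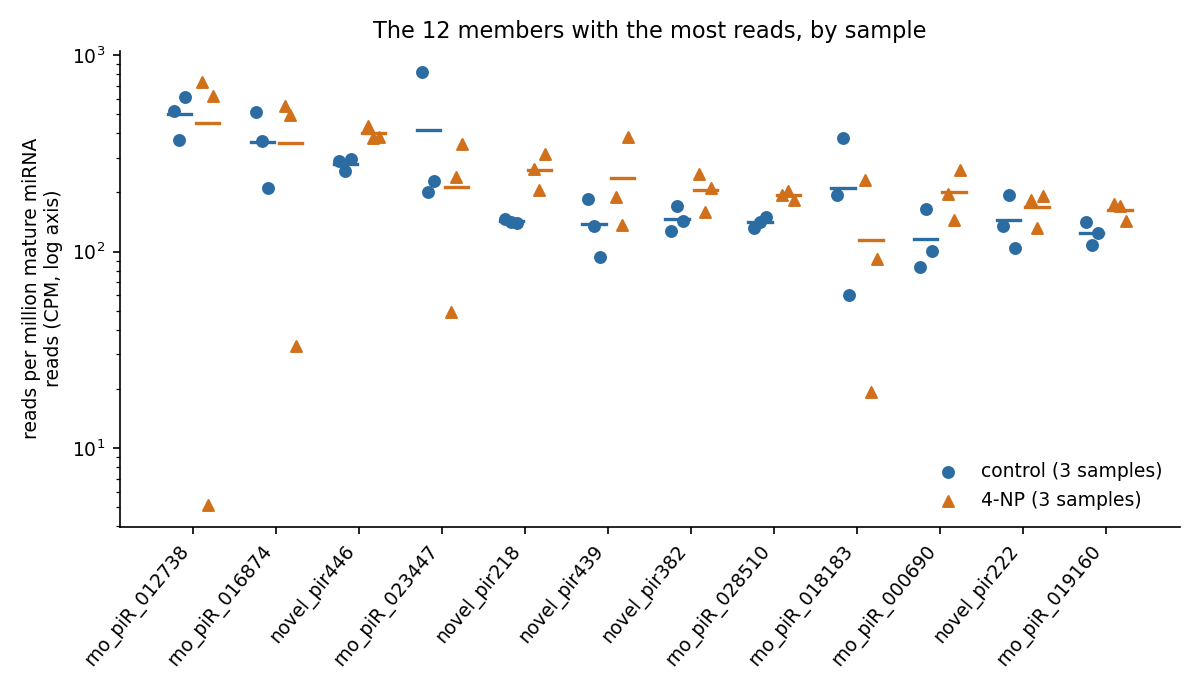
Each point is the level of a member in a single sample, in CPM on a log axis, for the 12 members with the most reads, with circles for the 3 control samples, triangles for the 3 4-NP samples and a line at each group's mean. The 4-NP samples of rno_piR_012738 run from 5.14 to 728 CPM, whereas those of novel_pir446 run from 378 to 437 CPM.

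The spread between replicate samples differed between the kinds of member. It is given as the within-group coefficient of variation, the SD divided by the mean in each group and averaged over the groups, each with n = 3. The median was 0.325 over the 27 known and 0.198 over the 141 predicted members. Of the known members, 12 (44.4%) had a value over 0.4, and of the predicted members 9 (6.38%) did. Among members with a mean of at least 300 reads, where counting adds less, 9 of 17 known and 1 of 41 predicted members were over 0.4. Since the rule used every one of these samples, no test of this difference is given.

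Other small RNAs in the same range of mean counts were closer to the predicted members. The median coefficient of variation was 0.159 over 350 mature miRNAs, 0.152 over 61 families of miRNA precursors and 0.252 over 75 families of snoRNAs, which guide the modification of ribosomal and spliceosomal RNA. The shares over 0.4 were 8.29%, 11.5% and 10.7%. These other classes were taken by mean count only, whereas the members also had to meet the limits of the ratio. The known piRNA rows outside the limits of the ratio resembled the known members, with a median of 0.384 over 34 rows and a share of 47.1%. The 37 predicted rows outside the limits had a median of 0.244 and a share of 16.2%, both above those of the predicted members.

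**Figure D3:**
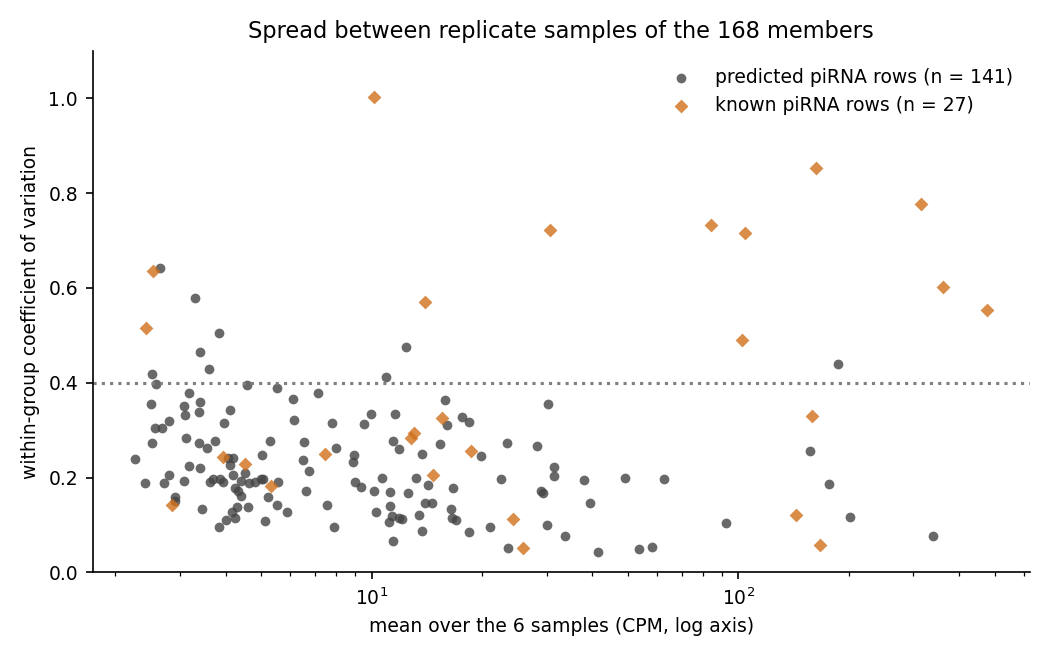
Each point is a member, with its mean level over the 6 samples in CPM on a log axis and its within-group coefficient of variation, and with known piRNAs as diamonds and predicted piRNAs as circles. The dotted line marks 0.4, above which lie 12 of the 27 known and 9 of the 141 predicted members.

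The 5 members with the smallest spread had coefficients of 0.042 to 0.054. They were novel_pir380, novel_pir488, rno_piR_020049, novel_pir290 and novel_pir452. The level of novel_pir380 was 31.0 CPM, 31.5 CPM and 34.7 CPM in the controls and 50.6 CPM, 49.3 CPM and 51.7 CPM after 4-NP. The level of rno_piR_020049 was 22.1 CPM, 20.6 CPM and 23.0 CPM and then 29.2 CPM, 31.5 CPM and 28.8 CPM. In all 5 of these members the 4-NP samples lay above the control samples, with ratios of 1.22 to 1.56. More widely, 14 members had a coefficient of at most 0.1, and in 13 of them (92.9%) the groups did not overlap, with the 4-NP samples higher. Of all 38 rows tested with so small a coefficient, members included, 28 (73.7%) were of this kind. At so small a spread a shift shared by most rows is enough to part the groups, so nothing is read from either share. The separation also depended on the scaling. By DESeq2's size factors 1 of the 14 members lay wholly above the controls and 1 wholly below. The 5 members named here had log2 fold changes of -0.10 to 0.24 by DESeq2.

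The 5 members with the largest spread were all known piRNAs: rno_piR_001200 (1.00), rno_piR_018183 (0.852), rno_piR_023447 (0.777), rno_piR_035301 (0.733) and rno_piR_005597 (0.723). The level of rno_piR_001200 was 3.37 CPM, 17.2 CPM and 1.61 CPM in the controls and 20.5 CPM, 17.7 CPM and 0.320 CPM after 4-NP. The level of rno_piR_005597 was 28.0 CPM, 8.18 CPM and 33.8 CPM and then 72.5 CPM, 34.0 CPM and 7.03 CPM. In both, low and high samples occurred in each group, and 4-NP sample 3 was the lowest of the 6.

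The members whose ratio lay nearest to 1 on the CPM scale were novel_pir514, novel_pir541, novel_pir194, novel_pir321 and rno_piR_016874, at 0.990 to 1.01. By DESeq2 these members had log2 fold changes of -0.46 to -0.40. Of these, novel_pir541 had the smallest spread, at 13.4 CPM, 13.8 CPM and 13.2 CPM in the controls and 15.5 CPM, 10.1 CPM and 15.0 CPM after 4-NP. Its 4-NP samples lay on both sides of the controls. The others were at 2.28 to 10.0 CPM, apart from rno_piR_016874.

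The known members of wide spread were compared, sample by sample, with rows of other kinds. This was done after their values were seen and is a description only. The 21 members with a coefficient over 0.4 were each added, in CPM, to every one of 111 rows that were not piRNAs, had a mean of at least 50 reads and had a coefficient over 0.3. A pair was kept where the within-group SD of the sum was at most 0.5 times the smaller SD of its parts. There were 7 such pairs, each with a different known member, and none with a predicted member. In 6 pairs the partner was a mature miRNA and in 1 it was a snoRNA family. Of the 111 rows searched, 51 were mature miRNAs, and with so few pairs nothing is read from this count. The best partner of a searched member in no pair gave 0.521, so the limit separates no clear group.

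The partner miRNAs are shown because their reads and those of the piRNA-annotated row added up to a steadier level than either alone. Capitals mark the seed, bases 2 to 8, by which a miRNA recognises its targets. The sequences and positions are RefSeq's for the GRCr8 assembly, which was matched for 5 of the 6 miRNAs by name.
rno-miR-3068-5p: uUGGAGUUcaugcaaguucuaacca
rno-miR-3585-3p: uGAACGGCccuuguuguga
rno-miR-3585-5p: uUCACAAGaaggugucuuucau
rno-miR-201-5p: cACUCAGUaaggcauuguuc
rno-let-7f-1-3p: cUAUACAAucuauugccuucc

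The 5 sequences carry 5 different seeds. miR-3068-5p is encoded on the minus strand at chr6:112811918-112811942 and let-7f-1-3p on the plus strand at chr17:16320564-16320584. miR-3585-3p (chrX:151706741-151706759), miR-3585-5p (chrX:151706773-151706794) and miR-201-5p (chrX:151711832-151711851) are all on the minus strand of the X chromosome. In 4 of the 7 pairs the partner was an arm of 1 of these 2 X-linked hairpins, miR-3585 or miR-201, and each of their arms was paired with a different piRNA-annotated row. The remaining partner miRNA was miR-201-3p. How many of the 111 rows searched were arms of X-linked hairpins was not determined, so nothing is read from the count of 4.

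The pair of the most abundant member had an SD of the sum of 0.358 times the smaller SD of its parts, and the lowest value, 0.336, was that of rno_piR_016874. Against rno_piR_012738, miR-3068-5p was at 265 CPM, 641 CPM and 322 CPM in the controls and 263 CPM, 836 CPM and 253 CPM after 4-NP. In each group it was highest in sample 2, where rno_piR_012738 was lowest. The sums of both rows were 785 CPM, 1013 CPM and 936 CPM and then 991 CPM, 841 CPM and 875 CPM. The highest sum was 1.29 times the lowest, whereas the member alone spanned 142 times and the miRNA alone 3.31 times. Over the groups the sums averaged 911 ± 116 CPM (control) and 903 ± 78.7 CPM (4-NP, SD, n = 3 each).

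Against rno_piR_016874, miR-3585-3p was at 26.6 CPM, 215 CPM and 330.1 CPM in the controls and 31.9 CPM, 188 CPM and 761 CPM after 4-NP. The order of the samples within each group was the reverse of the member's. The sums were 539.9 CPM, 578 CPM and 542 CPM and then 583 CPM, 680.4 CPM and 794 CPM, so the sums did not overlap between the groups, with a ratio of 1.24 where the member alone had 0.990. The other arm, miR-3585-5p, mirrored rno_piR_030373, which was at 54.3 CPM, 99.8 CPM and 95.2 CPM in the controls and 109 CPM, 209 CPM and 46.0 CPM after 4-NP. In the controls miR-3585-5p, at 216 to 278 CPM, was not the reverse of this member, and after 4-NP it was, at 142 CPM, 64.5 CPM and 245 CPM. This pair lay just at the limit (0.496), and its sums had a ratio of 0.814 where the member alone had 1.46.

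The miR-201 hairpin gave a pair with each arm. The level of rno_piR_035301 was 63.3 CPM, 146 CPM and 65.3 CPM in the controls and 66.2 CPM, 154 CPM and 9.64 CPM after 4-NP, and that of miR-201-5p was 148 CPM, 57.7 CPM and 106 CPM and then 139 CPM, 68.4 CPM and 169 CPM. Their sums lay at 171 to 223 CPM in all 6 samples. The level of rno_piR_032851 was 4.95 CPM, 22.3 CPM and 17.9 CPM and then 4.88 CPM, 16.3 CPM and 17.4 CPM, and that of miR-201-3p was 19.4 CPM, 4.81 CPM and 2.15 CPM and then 19.5 CPM, 3.40 CPM and 4.38 CPM. Their sums lay at 19.7 to 27.1 CPM. In this last pair sample 1 of each group had the miRNA high and the piRNA-annotated row low, and samples 2 and 3 of each group had the opposite.

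The remaining 2 pairs were weaker or of low level. rno_piR_005597 was paired with let-7f-1-3p, the passenger arm of a let-7 hairpin, with sums of 56.3 to 73.5 CPM in the controls and 88.6 to 116 CPM after 4-NP. rno_piR_034500, at 0.497 to 4.20 CPM, was paired with the SNORA73 family of snoRNAs (RF00045), with sums of 5.43 to 7.22 CPM. Over the 7 pairs the coefficient of variation of the sum was 0.080 to 0.136, against 0.489 to 0.733 for the member alone. The pairs were kept for a steadier sum, so this contrast was set by the selection and nothing is read from it. How many such pairs would arise by chance in a search of this size was not tested. Whether the same reads were counted on the miRNA in some samples and on the piRNA-annotated row in others was not tested, since no read sequences were used.

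**Figure D4:**
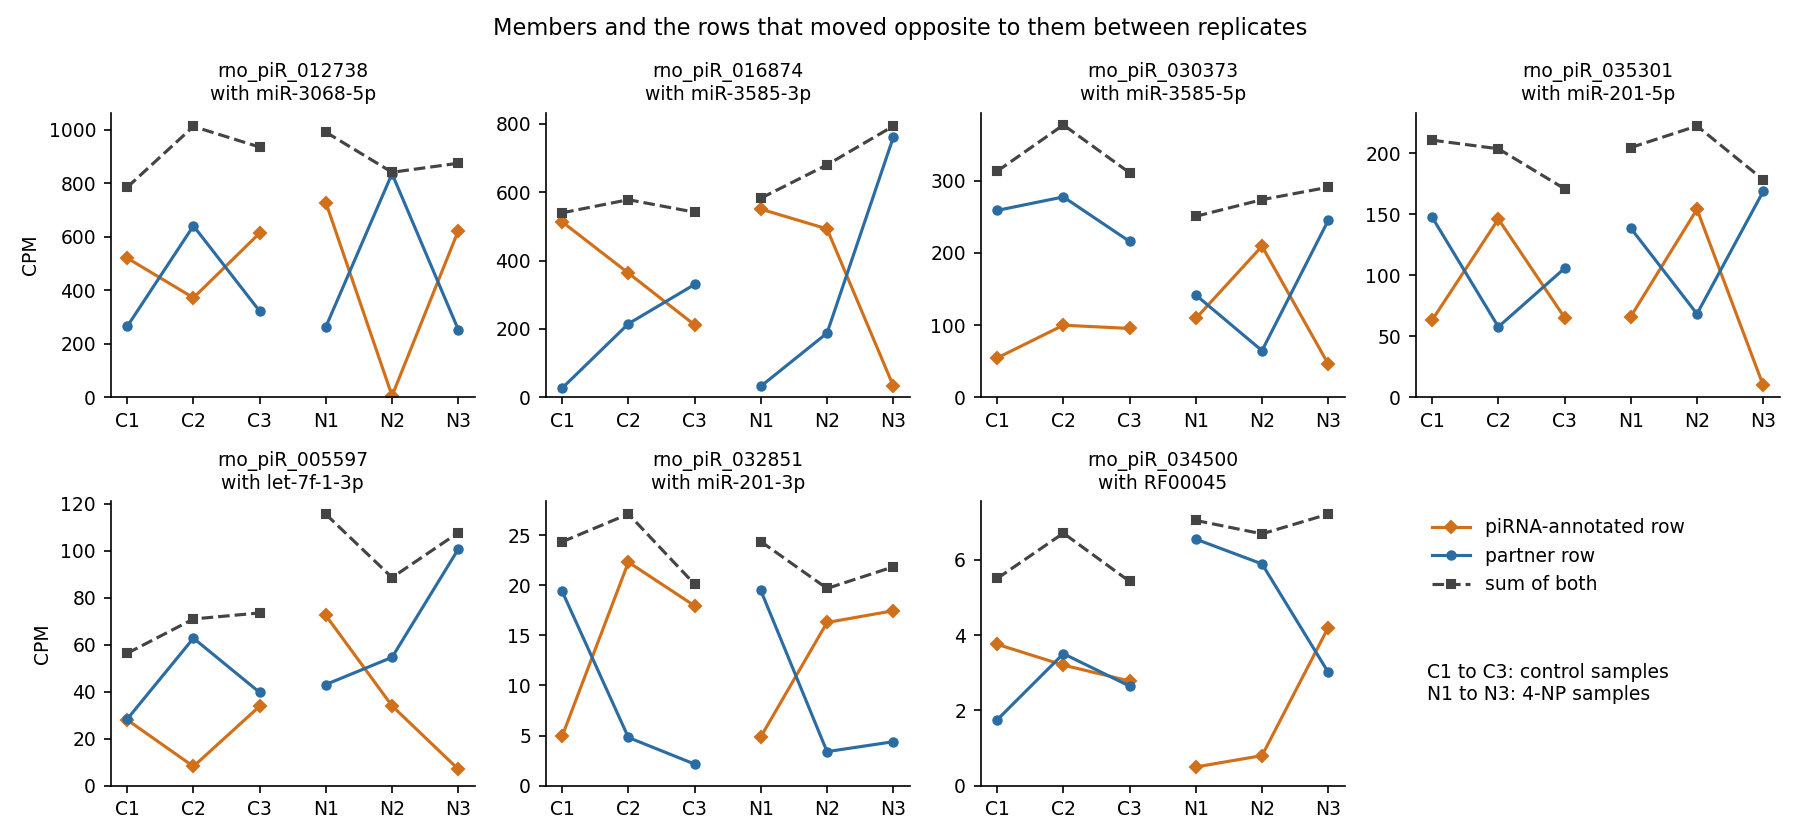
Each panel gives a known piRNA-annotated member (diamonds), its partner row (circles) and the sum of both (squares, dashed), in CPM, in the 3 control samples (C1 to C3) and the 3 4-NP samples (N1 to N3), with lines that only guide the eye within a group. The sum of rno_piR_012738 and miR-3068-5p stays at 785 to 1013 CPM while the member itself runs from 5.14 to 728 CPM.

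Rows most like the 3 most abundant members were also sought among 178 other rows that were neither piRNAs nor mature miRNAs, by the distance of log2(CPM + 1) after subtraction of each group's mean, over the 6 samples. The nearest to novel_pir446 was the mir-26 precursor family (RF00244) at a distance of 0.158, with the mir-210 precursor family (RF00679) practically level at 0.164. The nearest to rno_piR_016874 was the mir-449 precursor family (RF00711) at 0.649. That family was at 155 to 203 CPM in the controls and 2.37 to 47.6 CPM after 4-NP, where the member had a ratio of 0.990. The likeness is thus in the deviations within the groups only. For rno_piR_012738 the nearest row, SNORD26 (RF00087), was at 2.39, so none of the 178 rows followed it closely.

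The sample in which a member was highest or lowest was unevenly spread. 4-NP sample 1 was the highest of the 6 for 81 of the 168 members, and control sample 3 was the lowest for 51. Control sample 1 was the lowest for 40 and 4-NP sample 3 for 34. Among the predicted members the lowest sample was control sample 3 in 50 of 141, and among the known members it was 4-NP sample 2 or 3 in 14 of 27, 7 each. 4-NP sample 1 also held the most piRNA-annotated reads, 204384, against 118537 to 179259 in the others.

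Predicted members with a number from 301 to 350 in their name had lower ratios than the others. The sources used here do not say what the number stands for. In blocks of 50 consecutive numbers, the 27 members numbered 301 to 350 had a median ratio of 0.877, and 16 of them were below 1. The other 114 predicted members had a median of 1.38, and 12 of them were below 1. In the other blocks with more than 1 member the median ran from 1.20 to 1.69. In 16 of the 27 members the lowest of the 6 samples was 4-NP sample 3, which was the lowest in 11 of the other 114. Without that sample the median of the 27 was 1.04, with 12 below 1, and that of the 114 was 1.39, with 13 below 1. The block was picked out after the values were seen.

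Of the 5 members in which every 4-NP sample was below every control sample, 3 were in this block: novel_pir343, novel_pir313 and novel_pir314. The level of novel_pir343 was 19.6 CPM, 19.3 CPM and 18.5 CPM in the controls and 15.3 CPM, 18.4 CPM and 9.13 CPM after 4-NP, so sample 2 of the 4-NP group was barely below the controls. The others were novel_pir214, at 4.50 to 6.24 CPM and 2.21 to 3.84 CPM, and novel_pir275, at 2.68 to 3.10 CPM and 1.05 to 2.37 CPM. All 5 were predicted piRNAs.

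**Figure D5:**
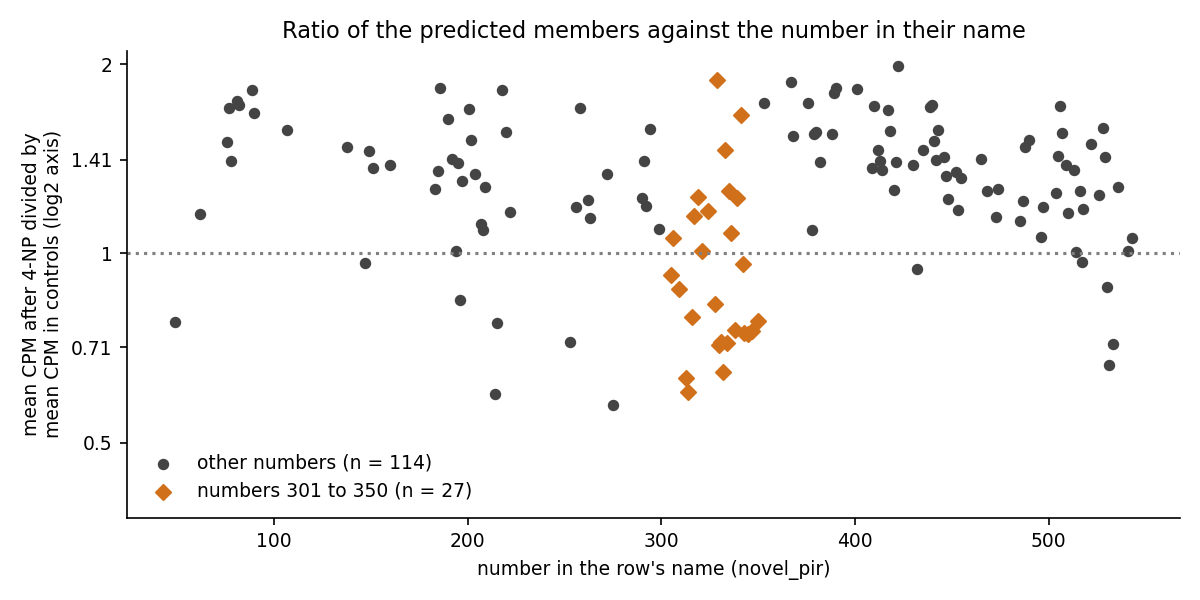
Each point is a predicted member, with the number in its name and the ratio of its mean CPM after 4-NP to that in the controls on a log2 axis, and diamonds mark numbers 301 to 350. Of these 27, 16 lie below the dotted line at 1, against 12 of the other 114.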

How the data were processed

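Small RNA of 18 to 30 nt was cut from a gel and ligated to adapters with molecular identifiers, per the labels. The authors deposited 1 table of raw read counts, with no normalization, for 2363 rows in 6 samples. The submitters' processing notes name HISAT2 and DESeq2 without a version or role. The piRNA collection, the way piRNAs were predicted and the genome build are not given in the sources used here. A further deposited column per sample, named for the identifiers and used in no test, is described in the closing section. All per-sample columns were used (0 were left unmapped), and columns named NP were assigned to the samples titled Treat that carry their number. The piRNA rows hold no sequence, so none is printed for them.

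CPM is the count per 1e+06 reads on mature miRNAs, computed with Python 3.11.15. The fit used edgeR 4.0.16 in R 4.3.3 (two-sided quasi-likelihood F test, filterByExpr) on 738 of 1625 rows of other small RNAs, with the mature totals times their TMM factors as library size and no replicate block, and 4 totals over genome classes were left out. Adjusted p-values are Benjamini-Hochberg values. The fit was tested on simulated data with known changes. Those changes lay beyond the limits of the members' ratio, and every simulated row had the same dispersion. The simulation therefore does not show how the fit performs on the members. The members, the marker lists and the tests were chosen with earlier results of these data known. The text names the 12 members with the most reads, the 5 smallest and 5 largest coefficients of variation, the 5 ratios nearest 1, the rows at the limits, the 3 with the largest share in 1 sample, and for the 3 most abundant the row most like each. Other names were chosen after their values were seen. Replicates of a group differed well beyond counting error over piRNA rows (chi-square per degree of freedom of 32.8 to 103). Alternatives were DESeq2 1.42.0, other scalings, no filter, other limits, a replicate block and each sample left out. A count of 3 reads is 0.128 to 0.150 CPM, and counting error only is covered by such a floor.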

Additional observations from a re-analysis of the deposited data

How the results depend on the processing

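The limits lie in the depth, the scaling and the number of samples. With 3 samples a group, a single sample can set a member's ratio, and members at 2.27 CPM rest on about 50 reads. Scaling by TMM factors of the other small RNAs gave a median log2 fold change of -0.037 and 1 called member. DESeq2 gave -0.034 and 5, against 0.36 and 9. Both of these scales come from the tested rows themselves and bring their typical change near 0 by construction. Without a filter on low counts 1 member was called, and the cause was not tested. Over the 738 rows as a whole the deviations of same-numbered samples had r of -0.04, -0.06 and 0.18. Differently numbered samples had r of -0.13 to 0.20, a range that holds all of these. Single members went either way. The level of rno_piR_032851 was lowest in sample 1 of each group, whereas rno_piR_023447 was highest in control sample 1 and lowest in 4-NP sample 1. With a replicate block 0 members were called by edgeR. With a single sample left out, 0 (without control sample 3) to 22 members (without 4-NP sample 2) were called, and the rule found 158 to 170 members.

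With a single sample left out and the members chosen again, the summed CPM was 3745 to 4462 in the controls and 4757 to 5240 after 4-NP. For the same 168 members it was, per 1e+06 of all counted reads, 3875 and 4451, per 1e+06 piRNA-annotated reads 784791 and 671628, and by DESeq2 size factors 5230 and 4553, so both of the latter put the controls higher. Without the members of a coefficient over 0.4, an alternative chosen after seeing the data, it was 2599.9 and 3534. Members with a ratio above 1 numbered 79 per piRNA-annotated read and 81 by DESeq2 size factors. These counts, also added later, were 113 to 137 with a single sample left out, and 9 to 12 known members had a coefficient over 0.4. A mean count of at least 200 left 83 members. The median SD of log2(CPM + 1), another measure of spread, was 0.271. The sums of known and of predicted members and the members of small spread on DESeq2's scale, given in the report, were also added after seeing the data.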

Other observations

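The deposited column named for molecular identifiers held 0.001 wherever the count was 0. In the 280 known piRNA rows it was 1 in each of the 961 nonzero values, so it was not a number of molecules there. In the 526 predicted piRNA rows it ran from 1 to 16 with a median of 1, and 68 of these rows held 1 in all 6 samples. Each of the 2184 nonzero counts was at least 10 times the value. The smallest nonzero count was accordingly 10 in predicted rows and 1 in known rows, so a 0 in a predicted row can stand for fewer than 10 reads. No member had a 0.

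Among the 141 predicted members the median value was 2, and 16 members had a value above 5 in at least 1 sample. The highest was in novel_pir382, with 12, 14 and 12 in the controls and 16, 11 and 14 after 4-NP, followed by novel_pir390 with 6, 9 and 7 and then 13, 7 and 9. The mean value was higher after 4-NP in 48 members, lower in 17 and equal in 76. What the value counts is not given in the sources used here, and its relation to the reads was not tested.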
